A study of Mus musculus with 28 samples.

Results

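Homologous recombination and Fanconi repair genes were a set of 34 genes for the repair of broken and cross-linked DNA, followed in tumours that lack p53. Each gene was read from the probe set annotated to its symbol alone, and from the brightest one where several were. Of the 34 genes, 32 had such a probe set, and Xrcc2 and Rbbp8 were not analysed here. Among the 18193 genes of the series, 13931 were bright enough to be tested, and 31 of the 32 repair genes were among them. The exception was Bard1, the binding partner of Brca1, whose intensity was 0.7 to 13.3 in medulloblastoma, 0.7 to 7.3 in glioma and 0.3 to 1.3 in normal brain.

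Homologous recombination copies the lost stretch of a broken chromosome from the sister chromatid. The break is trimmed back to single strands, BRCA1, PALB2 and BRCA2 prepare these for pairing, and motor proteins drive the exchange with the matching strand. The Fanconi pathway takes cross-links out of stalled replication forks by attaching ubiquitin to FANCD2 and FANCI, while the kinases ATM and ATR signal damage to the cell cycle and p53 acts downstream of them. The pathway works in S and G2 phase, so that dividing cells make most of its proteins, and neurons that have left the cycle make little of many of them.

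The series compared mouse tumours and normal brain on Affymetrix Mouse 430 2.0 arrays, a one-colour array with a group of short probes, the probe set, for each transcript. Medulloblastoma arises in the cerebellum and glioma has features of glial cells, and both came from mice with hGFAP-Cre::p53-/-, in which a Cre recombinase is driven by the human GFAP promoter in neural progenitors and glia. Rictor encodes a subunit of the kinase complex mTORC2 and was deleted (Rictor-/-), heterozygous (Rictor+/-) or not altered on this background. The 10 medulloblastomas comprised 5 Rictor-null, 2 Rictor-heterozygous and 3 p53-null-only tumours, and the 6 gliomas comprised 1 Rictor-null, 4 Rictor-heterozygous and 1 p53-null-only tumour. The 12 normal brains comprised 5 Rictor-null, 5 Rictor-heterozygous and 1 p53-null-only sample on the same background, and 1 wild-type sample. The labels give no ages, do not say that arrays came from separate animals and state that tumour pieces held at least 70% tumour cells. Arrays are called here by the code in their titles, such as A3 or C5. The p-values are therefore set by the scatter among arrays alone, part of which can be technical.

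Intensities had been scaled to one trimmed mean, and the median per array ran from 18.8 to 27.8. Differences below are on the scale of log2(intensity + 6.3), which understates the change of a dim gene, and a gene was called at a Benjamini-Hochberg adjusted p under 0.05 in limma over all 13931 genes. Values for further probe sets of a gene came from a separate limma fit, adjusted over 34945 probe sets. Markers of the labelled tissues were checked. Of 6 granule neuron markers, 4 were higher in medulloblastoma than in normal brain, with summed intensities of 6195 to 12443 in medulloblastoma and 730.3 to 19396 in normal brain. All 4 oligodendrocyte precursor markers were higher in glioma than in normal brain, with sums of 5502.2 to 8831.5 in glioma and 188.6 to 1324.8 in normal brain. Other glial markers went the other way in glioma. Of 5 astrocyte markers 0 were higher and 3 lower than in normal brain, and all 4 oligodendrocyte markers were lower. Of 6 mature neuron markers, 5 were lower in medulloblastoma and 6 in glioma, with sums of 1527.3 to 11403 in medulloblastoma, 527.7 to 4237.3 in glioma and 13662 to 19453 in normal brain. Of all tested genes, 32.2% were called higher and 32% lower in medulloblastoma than in normal brain, and 28.4% and 25.5% in glioma. No marker or proliferation gene was listed at 0 on any array. Normal brains B2, C5 and Z2 carried 1740.4 to 4918.3 of Gabra6, a cerebellar granule neuron receptor subunit, against at most 116.3 in the other normal brains, and medulloblastomas B6 and C6 and glioma B7 carried 1014.0 to 1637.5.

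Promoters are shown first, because several of these genes are known targets of E2F factors, which switch on genes for DNA replication. The RefSeq promoter table (GRCm38.p6, 250 bases before to 50 after the gene start) held 25 of the 34 genes. The E2F letters TTTCCCGC, TTTCGCGC, TTTGCCGC or TTTGGCGC, read on both strands, stood in the promoters of 7 of those 25 genes (28%), against 704 of 27025 genes in the table (2.6%). The 7 genes were Bard1, Brca2, Chek2, Clspn, Fancg, Rad51c and Topbp1. In the sequences below, written 5′ to 3′ on the gene's strand, capitals mark the E2F letters. They come from 4 genes that were called higher in both tumours and from Fancg, which was not called in either. Topbp1 lies at chr9:103305077-103305376, Clspn at chr4:126556730-126557029, Chek2 at chr5:110839733-110840032, Brca2 at chr5:150522371-150522670, all on the + strand, and Fancg at chr4:43010252-43010551 on the − strand.
Topbp1: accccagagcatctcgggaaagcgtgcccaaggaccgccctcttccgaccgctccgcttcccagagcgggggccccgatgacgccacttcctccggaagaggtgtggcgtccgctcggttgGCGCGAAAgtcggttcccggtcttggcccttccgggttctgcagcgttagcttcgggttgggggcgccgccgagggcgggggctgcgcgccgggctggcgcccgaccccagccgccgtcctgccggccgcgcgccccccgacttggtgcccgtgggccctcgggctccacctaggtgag
Clspn: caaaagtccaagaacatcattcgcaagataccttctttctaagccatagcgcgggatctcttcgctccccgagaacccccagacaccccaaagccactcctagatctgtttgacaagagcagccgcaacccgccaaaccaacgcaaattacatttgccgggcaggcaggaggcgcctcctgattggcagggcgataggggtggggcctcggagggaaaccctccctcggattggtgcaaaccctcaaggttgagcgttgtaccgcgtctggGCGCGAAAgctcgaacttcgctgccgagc
Chek2: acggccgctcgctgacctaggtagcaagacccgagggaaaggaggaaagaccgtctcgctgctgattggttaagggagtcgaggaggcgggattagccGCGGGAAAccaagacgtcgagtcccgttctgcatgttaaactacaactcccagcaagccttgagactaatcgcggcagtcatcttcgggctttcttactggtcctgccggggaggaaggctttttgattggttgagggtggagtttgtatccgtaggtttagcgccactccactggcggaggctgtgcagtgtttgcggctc
Brca2: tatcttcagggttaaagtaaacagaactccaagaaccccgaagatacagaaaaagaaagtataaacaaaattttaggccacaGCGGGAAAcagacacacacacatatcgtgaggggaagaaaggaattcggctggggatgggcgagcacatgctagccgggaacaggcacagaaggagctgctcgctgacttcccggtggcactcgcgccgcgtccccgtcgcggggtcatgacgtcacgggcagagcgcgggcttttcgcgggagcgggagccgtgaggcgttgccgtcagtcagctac
Fancg: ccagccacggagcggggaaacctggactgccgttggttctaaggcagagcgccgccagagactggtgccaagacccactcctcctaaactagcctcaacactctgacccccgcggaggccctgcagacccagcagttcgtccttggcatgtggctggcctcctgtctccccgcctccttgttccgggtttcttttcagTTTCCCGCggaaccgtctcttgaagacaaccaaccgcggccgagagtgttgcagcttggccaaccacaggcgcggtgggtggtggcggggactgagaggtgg

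The cell-cycle letters TTTGAA (CHR) stood in 1 of the 25 promoters (4%), that of Bard1, against 20.2% of genes in the table. The letters CCAAT on either strand stood in 13 of 25 (52%), against 41.1% in the table. Brca1, on the − strand at chr11:101551906-101552205, had CCAAT, in capitals here, and none of the E2F letters in this window.
Brca1: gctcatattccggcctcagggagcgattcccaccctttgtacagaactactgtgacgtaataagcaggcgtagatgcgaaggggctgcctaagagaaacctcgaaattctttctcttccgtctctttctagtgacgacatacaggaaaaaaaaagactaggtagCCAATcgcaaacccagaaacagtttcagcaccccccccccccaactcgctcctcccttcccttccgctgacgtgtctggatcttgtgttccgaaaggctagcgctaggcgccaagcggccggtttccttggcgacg

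Of the 6 tested genes with E2F letters, 5 were called higher in medulloblastoma than in normal brain, as were 15 of the 18 tested genes whose promoter lacked them. In glioma the counts were 5 of 6 and 13 of 18. A match of letters is a description of the sequence, and binding was not measured.

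The repair genes were widely higher in medulloblastoma than in normal brain. Of 31 tested, 26 rose, 0 fell and 5 did not pass, against 32.2% of all tested genes called higher and 32% called lower. Their median log2 difference was 1.60, and that of all genes was 0.0068. In glioma 24 rose against normal brain, 1 fell and 6 did not pass, against 28.4% of all genes called higher and 25.5% called lower, with a median of 1.03 for the repair genes and 0.051 for all genes. The groups did not overlap at all for 19 genes in medulloblastoma and for 5 in glioma (Brca1, Nbn, Atr, Topbp1 and Tipin), every tumour array lying above every normal brain array, which held for 8.76% and 9.45% of all genes in these comparisons. A share of tumour cells in a piece and the RNA level within a cell cannot be told apart in such bulk samples.

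**Figure D1:**
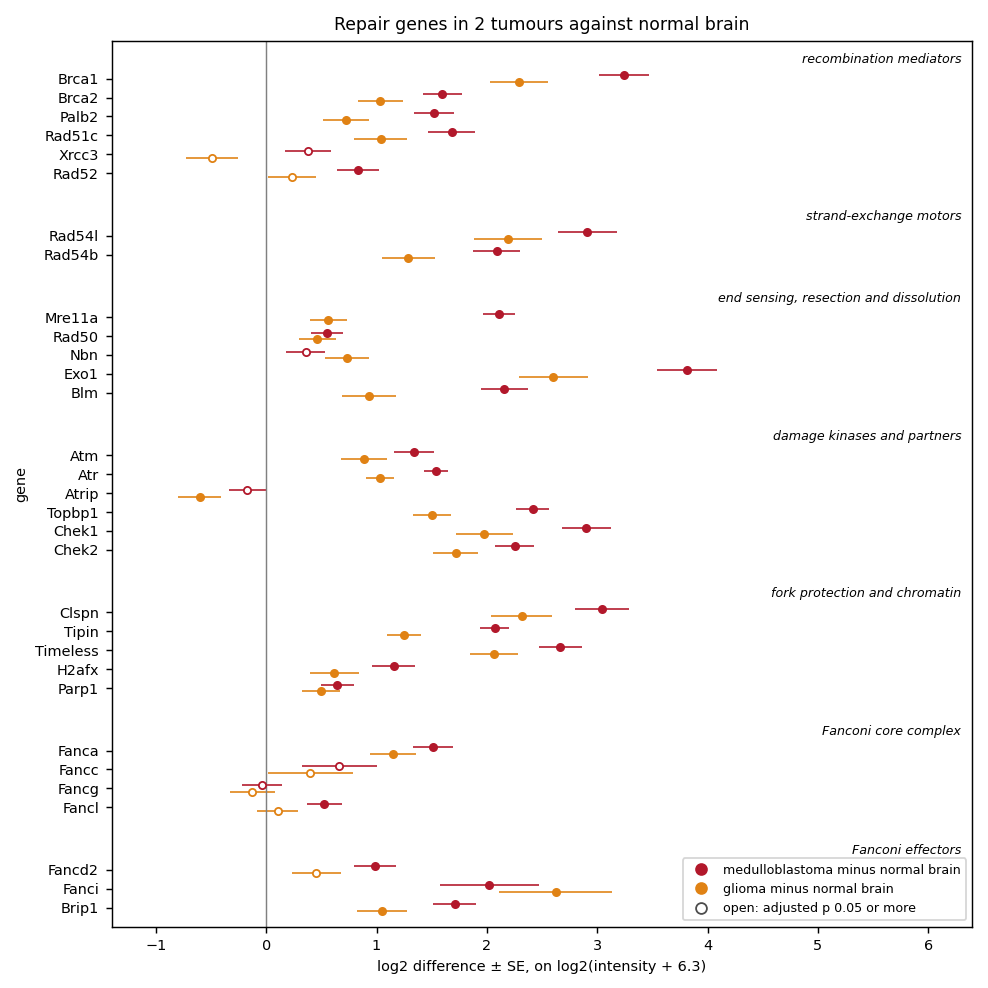
Log2 differences (points) with their standard errors (bars) of the 31 tested repair genes, for medulloblastoma minus normal brain (red) and glioma minus normal brain (orange), in role groups down the page. Filled points had an adjusted p under 0.05: 26 are filled in medulloblastoma, and 25 in glioma, of which Atrip alone lies left of 0.

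Proliferation genes moved with this result. All 15 tested proliferation genes were higher in medulloblastoma and 14 of 15 in glioma than in normal brain, with summed intensities of 6976.3 to 17582 in medulloblastoma, 3478.0 to 11484 in glioma and 855.0 to 2892.8 in normal brain. Mki67, the gene of the proliferation antigen Ki-67, had a lowest, median and highest intensity of 478.8, 1430 and 2007.3 in medulloblastoma, 168.0, 705.2 and 968.2 in glioma and 2.8, 13.4 and 274.8 in normal brain. With the mean of the proliferation genes as a further term in the limma fit, 0 repair genes were called against normal brain in either tumour, and 4 in medulloblastoma and 0 in glioma had an unadjusted p under 0.05. That term left the medians at 0.05 in medulloblastoma and −0.18 in glioma, and widened the median standard error to 0.594 and 0.481, against 0.190 and 0.217 without it. With the same term, 0 of all 13931 genes were called in medulloblastoma (0% higher) and 369 in glioma (1.21% of all genes higher).

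On the probe sets used, Brca1 had the largest rise of the recombination mediators. Brca1, a scaffold and ubiquitin ligase that favours recombination at breaks, had a lowest, median and highest intensity of 125.4, 265.2 and 322.5 in medulloblastoma, 51.3, 155.4 and 208.4 in glioma and 5.5, 20.1 and 50.8 in normal brain. Every tumour lay above every normal brain, though glioma A4 at 51.3 stood next to normal brain B7 at 50.8. The log2 difference from normal brain was 3.24 (SE 0.23, limma adjusted p = 9.06e-12) in medulloblastoma and 2.29 (SE 0.26, limma adjusted p = 8.09e-08) in glioma. The other 3 probe sets of Brca1, all dimmer, gave 0.45 to 2.20 in medulloblastoma and 0.18 to 1.74 in glioma. The value of 0.18 did not pass (limma adjusted p = 0.532). Brca2, a mediator that acts on single-stranded DNA, had 86.0, 159.8 and 226.9 in medulloblastoma, 57.1, 94.6 and 145.0 in glioma and 33.7, 45.6 and 78.4 in normal brain. Medulloblastomas stood clear of normal brains, and gliomas overlapped them through normal brains C2 and Z2, at 78.4 and 58.8. Its difference was 1.60 (SE 0.18, limma adjusted p = 2.05e-08) in medulloblastoma and 1.04 (SE 0.20, limma adjusted p = 0.000127) in glioma. Palb2, the bridge between BRCA1 and BRCA2, rose by 1.52 and 0.72 in medulloblastoma and glioma, and Rad51c, which also acts as a mediator, by 1.68 and 1.04. Rad52, an annealing protein, rose by 0.83 in medulloblastoma and had a difference of 0.23 that did not pass in glioma. For Xrcc3, whose protein binds that of Rad51c, neither tumour passed, with 0.38 (limma adjusted p = 0.111) in medulloblastoma and −0.49 (limma adjusted p = 0.0802) in glioma.

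Both strand-exchange motors rose in both tumours, against 32.2% of all genes called higher in medulloblastoma and 28.4% in glioma. Rad54l, a DNA translocase that helps open the partner duplex, had a lowest, median and highest intensity of 67.6, 112.1 and 256.8 in medulloblastoma, 22.5, 76.6 and 130.3 in glioma and 3.9, 10.95 and 39.2 in normal brain. Only glioma A4, at 22.5, reached into the range of the normal brains. The log2 difference was 2.91 (SE 0.27, limma adjusted p = 7.90e-10) in medulloblastoma and 2.19 (SE 0.31, limma adjusted p = 1.48e-06) in glioma. Rad54b, its relative, had 34.1, 50.6 and 90 in medulloblastoma, 15.3, 31.7 and 43.9 in glioma and 2.4, 8.8 and 17.7 in normal brain. Here too glioma A4 alone overlapped the normal brains. Its difference was 2.09 (SE 0.21, limma adjusted p = 4.10e-09) in medulloblastoma and 1.29 (SE 0.24, limma adjusted p = 7.12e-05) in glioma.

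Genes for sensing and trimming ends differed among themselves. The exonuclease Exo1 was chosen here after its values were seen. On the probe sets used, it had the largest rise of all 31 genes in medulloblastoma. Its lowest, median and highest intensity was 48.0, 201.8 and 288.1 in medulloblastoma, 19.8, 95.2 and 119.0 in glioma and 2.7, 6.7 and 37.2 in normal brain. All medulloblastomas lay above all normal brains, and glioma A4 lay below normal brain C2. The log2 difference was 3.82 (SE 0.27, limma adjusted p = 9.57e-12) in medulloblastoma and 2.60 (SE 0.31, limma adjusted p = 1.45e-07) in glioma. The helicase Blm, which dissolves joined recombination intermediates, rose by 2.16 in medulloblastoma and 0.93 in glioma.

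The members of the MRN complex, which binds broken ends and recruits ATM, moved unequally on the probe sets used. Mre11a, its nuclease, rose by 2.11 (SE 0.15, limma adjusted p = 8.26e-12) in medulloblastoma and by 0.56 (SE 0.17, limma adjusted p = 0.00649) in glioma. A dimmer probe set of Mre11a did not pass, with 0.37 (limma adjusted p = 0.170) in medulloblastoma and 0.08 (limma adjusted p = 0.833) in glioma. Rad50, the ATPase of the complex, had 67.9, 118.8 and 221.0 in medulloblastoma, 97.2, 104.3 and 143.3 in glioma and 56.3, 77.8 and 118.1 in normal brain, ranges that overlapped throughout. It rose by 0.55 (SE 0.15, limma adjusted p = 0.00171) in medulloblastoma and by 0.46 (SE 0.17, limma adjusted p = 0.0214) in glioma. Nbn, its adaptor, had 50.7, 135.4 and 218.5 in medulloblastoma, 151.2, 157.2 and 201.7 in glioma and 51.6, 111.4 and 119.8 in normal brain. All gliomas lay above all normal brains, whereas medulloblastomas spread over and beyond both groups. Its difference passed in glioma at 0.73 (SE 0.20, limma adjusted p = 0.00316) and did not pass in medulloblastoma at 0.36 (SE 0.18, limma adjusted p = 0.0757).

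**Figure D2:**
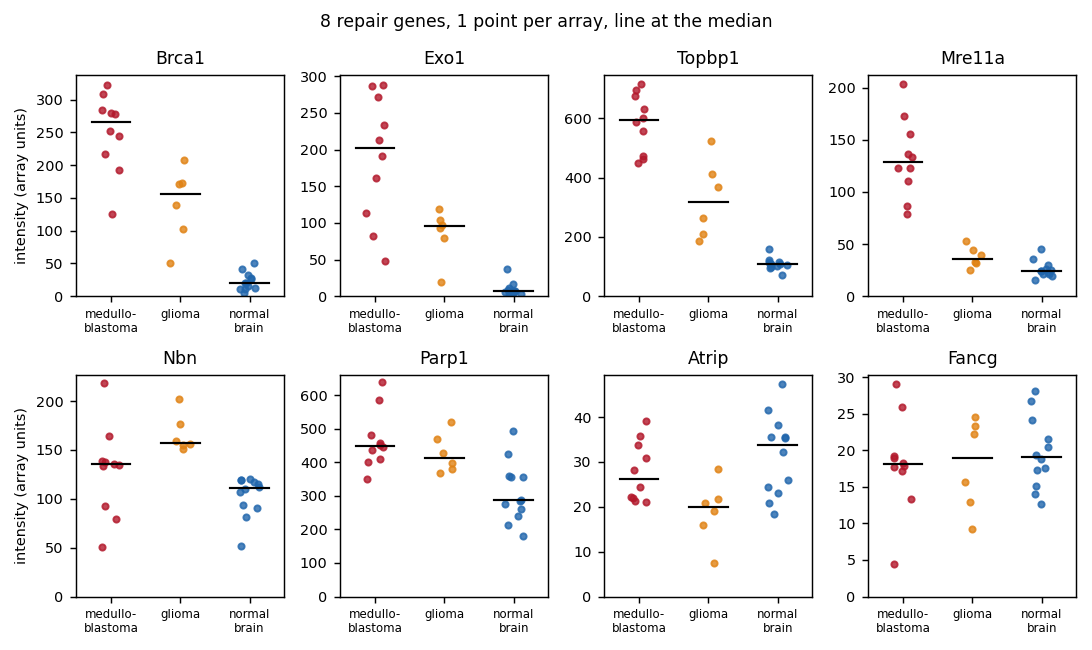
Intensity (array units, linear axes from 0) of 8 repair genes on each array, with a line at the median of medulloblastoma (n = 10), glioma (n = 6) and normal brain (n = 12). Mre11a stands apart in medulloblastoma, the glioma median is the highest for Nbn, whose highest single array is a medulloblastoma, and Atrip and Fancg show no rise in either tumour.

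Damage kinases and their partners rose in both tumours with 1 exception, against 32.2% and 28.4% of all genes in medulloblastoma and glioma. Topbp1, the activator of ATR, had a lowest, median and highest intensity of 450.4, 595.5 and 714.9 in medulloblastoma, 187.3, 317.1 and 524.3 in glioma and 71.4, 109.1 and 160.1 in normal brain. Neither tumour overlapped normal brain. It had the smallest adjusted p of the 31 genes in medulloblastoma, with a log2 difference of 2.42 (SE 0.15, limma adjusted p = 1.11e-12), and 1.504 (SE 0.17, limma adjusted p = 6.23e-08) in glioma. Atm, the kinase of double-strand breaks, had 125.2, 207.7 and 356.0 in medulloblastoma, 108.9, 151.0 and 219.1 in glioma and 56.9, 85.3 and 126.3 in normal brain. Normal brain C2 was the highest of its group and lay just above the lowest tumours of both kinds. The difference was 1.34 (SE 0.18, limma adjusted p = 3.80e-07) in medulloblastoma and 0.89 (SE 0.21, limma adjusted p = 0.000694) in glioma. Atr, the kinase of stalled forks, rose by 1.54 and 1.03 in medulloblastoma and glioma, and the effector kinases Chek1 by 2.90 and 1.98 and Chek2 by 2.25 and 1.72.

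Atrip, the partner protein through which ATR reaches single-stranded DNA, went the other way. Its lowest, median and highest intensity was 21.0, 26.3 and 39.2 in medulloblastoma, 7.5, 19.9 and 28.5 in glioma and 18.3, 33.7 and 47.4 in normal brain. The glioma range reached below the others and overlapped both. Atrip fell by 0.60 on the log2 scale (SE 0.19, limma adjusted p = 0.00961) in glioma, and in medulloblastoma the difference was −0.17 (SE 0.17, limma adjusted p = 0.386). Without glioma A4, its lowest array, the fall in glioma was not called, nor was it within either set of arrays that share a title prefix.

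All 5 genes of fork protection and chromatin rose in both tumours, against 32.2% and 28.4% of all genes in medulloblastoma and glioma. Tipin, which with Timeless holds the stalled fork together, had a lowest, median and highest intensity of 522.7, 711.5 and 951.2 in medulloblastoma, 263.9, 383.1 and 582.2 in glioma and 126.3, 168.5 and 209.3 in normal brain, with no overlap between tumours and normal brain. Its log2 difference was 2.07 (SE 0.13, limma adjusted p = 2.52e-12) in medulloblastoma and 1.25 (SE 0.15, limma adjusted p = 2.31e-07) in glioma. Parp1, which marks breaks with poly(ADP-ribose), had 350.9, 448.9 and 637.9 in medulloblastoma, 367.9, 413.6 and 519.7 in glioma and 181.7, 286.8 and 493.6 in normal brain. The ranges overlapped, and this probe set rose by 0.64 (SE 0.15, limma adjusted p = 0.000473) in medulloblastoma and by 0.50 (SE 0.17, limma adjusted p = 0.0154) in glioma. Its other 3 probe sets, 1 of them nearly as bright, gave 0.98 to 1.17 in medulloblastoma and 0.45 to 0.94 in glioma. Clspn, the adaptor through which ATR activates CHEK1, rose by 3.04 and 2.31 in medulloblastoma and glioma. Its second, dimmer probe set gave 1.12 and 0.50. Timeless rose by 2.67 and 2.07. The histone variant H2afx (H2ax in the annotation), phosphorylated around breaks, rose by 1.16 and 0.62.

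The Fanconi core complex is the ubiquitin ligase of the pathway. Of its 4 tested members, 2 were higher in medulloblastoma and 1 in glioma, against 32.2% and 28.4% of all genes. Its median log2 difference, 0.60 in medulloblastoma and 0.25 in glioma, was the smallest of the 7 role groups, an order that was not tested. Fancl, its catalytic subunit, had a lowest, median and highest intensity of 62.7, 116.3 and 171.8 in medulloblastoma, 52.8, 88.5 and 109.8 in glioma and 52.8, 75.9 and 117.2 in normal brain. All ranges overlapped. It rose by 0.53 (SE 0.16, limma adjusted p = 0.00557) in medulloblastoma, and in glioma the difference of 0.10 did not pass (SE 0.18, limma adjusted p = 0.656). Fanca, a structural subunit, had 44.2, 84.9 and 130.3 in medulloblastoma, 35.4, 56.6 and 87.3 in glioma and 18.6, 23.7 and 35.7 in normal brain. Medulloblastomas stood clear of normal brains, and gliomas did so except A4 at 35.4 beside normal brain C2 at 35.7. The difference was 1.51 (SE 0.18, limma adjusted p = 7.77e-08) in medulloblastoma and 1.15 (SE 0.21, limma adjusted p = 5.15e-05) in glioma. Fancg, a further subunit, had differences of −0.04 in medulloblastoma and −0.13 in glioma that did not pass (limma adjusted p = 0.864 and 0.625). Fancc did not pass either, with 0.66 and 0.40.

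The Fanconi effectors were higher in medulloblastoma in 3 of 3 cases and in glioma in 2 of 3, against 32.2% and 28.4% of all genes. Fancd2, a target of the ligase, had a lowest, median and highest intensity of 30.5, 56.7 and 81.8 in medulloblastoma, 17.2, 34.0 and 50.1 in glioma and 11.9, 23.6 and 35.9 in normal brain, with overlap in both comparisons. It rose by 0.99 (SE 0.19, limma adjusted p = 8.15e-05) in medulloblastoma, and in glioma 0.46 did not pass (SE 0.22, limma adjusted p = 0.0859). Fanci, its partner and second target, had 24.1, 45.0 and 80.4 in medulloblastoma, 16.2, 43.5 and 964.7 in glioma and 0.7, 10.2 and 17.3 in normal brain. Medulloblastomas stood clear of normal brains, and among the gliomas B3 at 16.2 fell within their range while B7 stood far above every other array. The difference was 2.02 (SE 0.45, limma adjusted p = 0.000318) in medulloblastoma and 2.62 (SE 0.51, limma adjusted p = 0.000115) in glioma. The helicase Brip1, a binding partner of BRCA1, rose by 1.71 and 1.05 in medulloblastoma and glioma.

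Medulloblastoma and glioma were then set against each other. Of the 31 genes 12 were higher in medulloblastoma, 0 were lower and 19 did not pass, against 13.6% of all genes called higher and 14.8% called lower, with a median log2 difference of 0.60 for the repair genes and 0.0078 for all genes. The 12 genes were Brca1, Palb2, Xrcc3, Rad54b, Mre11a, Exo1, Blm, Atr, Topbp1, Chek1, Tipin and Brip1. Mre11a, given in full after its values were seen, had the largest difference, 1.55 (SE 0.18, limma adjusted p = 2.97e-07), with a lowest, median and highest intensity of 78.4, 128.3 and 203.2 in medulloblastoma and 25.1, 35.9 and 53.2 in glioma. It was the only repair gene with every medulloblastoma above every glioma, which held for 2.63% of all genes. A second, dimmer probe set of Mre11a gave a difference of 0.29 (SE 0.27, limma adjusted p = 0.524), and 0.37 (SE 0.22, limma adjusted p = 0.170) between medulloblastoma and normal brain, so that the 2 probe sets did not show the same size of change. Blm differed by 1.22 (SE 0.26, limma adjusted p = 0.000729) and Exo1 by 1.21 (SE 0.33, limma adjusted p = 0.00648). The largest differences in the other direction, −0.60 for Fanci and −0.37 for Nbn, did not pass. Both tumours were compared with the same normal brains, so their differences from normal brain share those arrays.

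The tumour contrast rested in part on 1 array. Glioma A4 held the lowest value of the 6 gliomas for 22 of the 31 genes, and its Mki67 intensity of 168.0 was the lowest of the tumours. It was also the only p53-null-only glioma, so array, genotype and low Mki67 cannot be told apart here. Without glioma A4, 5 genes were called higher in medulloblastoma than in glioma in place of 12, and Mre11a, Blm, Atr, Topbp1 and Tipin remained. The share of all genes called higher was 9.68% without it, against 13.6% with it. With the proliferation genes as a term 4 were called, namely Mre11a at 1.33, Blm at 0.74, Topbp1 at 0.61 and Tipin at 0.61, against 7.45% of all genes called higher. Proliferation genes were called higher in medulloblastoma than in glioma in 6 of 15 cases. The title prefixes YZ and YZ2 may mark sets of arrays, though the labels do not say what they are. Within the YZ arrays 23, 16 and 6 repair genes were called higher in the 3 contrasts, namely medulloblastoma or glioma over normal brain, and medulloblastoma over glioma. Of all genes, 19.5%, 19.6% and 6.09% were called higher in these fits. Within the YZ2 arrays the counts were 24, 16 and 1, against 28.1%, 12.9% and 3.08% of all genes. The YZ arrays held 5 medulloblastomas, 4 gliomas and 5 normal brains. The YZ2 arrays held 5, 2 and 7, both gliomas being Rictor-heterozygous, so the smaller counts between the tumours rest on few gliomas.

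**Figure D3:**
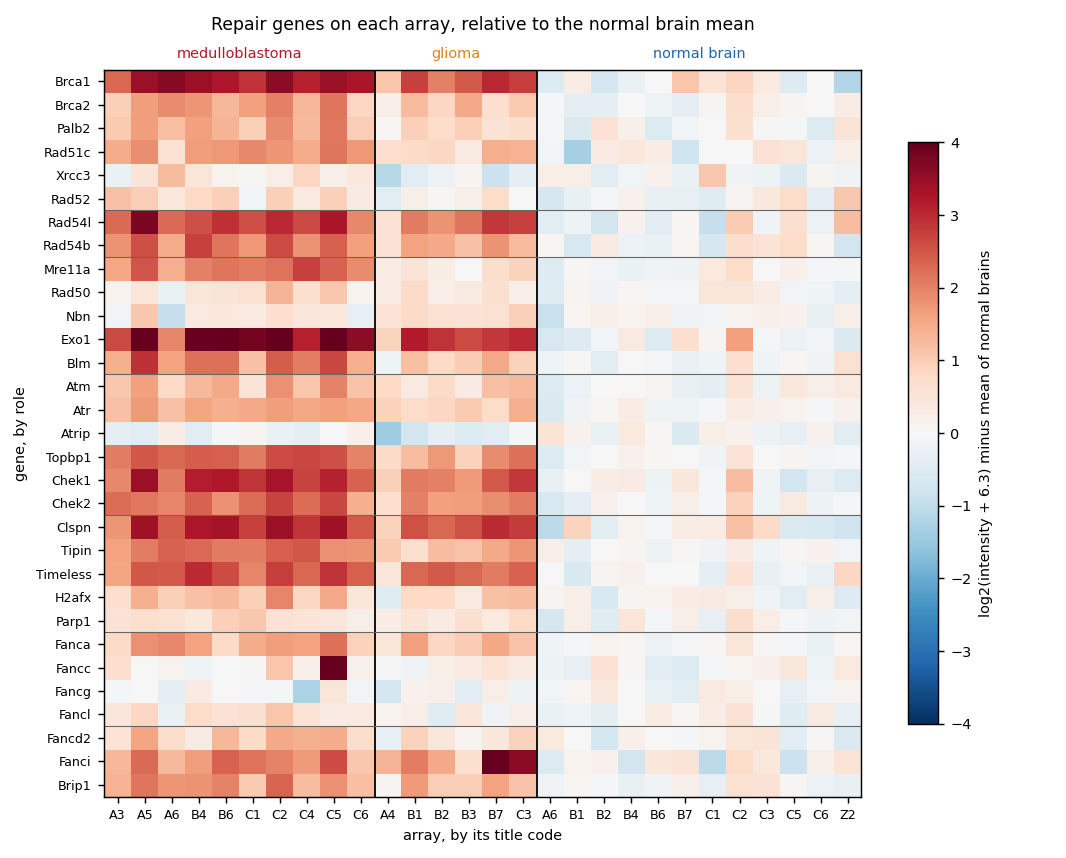
Log2(intensity + 6.3) of the 31 tested repair genes (rows, by role) on the 28 arrays (columns), minus the mean of the normal brains. Red is higher and blue is lower than that mean, and the colours saturate at a difference of 4. Glioma A4 is paler than the other gliomas, normal brain C2 is redder than the other normal brains, and Fancc in medulloblastoma C5 and Fanci in gliomas B7 and C3 stand out from their rows.

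Among the normal brains, C2 held the highest value for 17 of the 31 genes. It also had the highest Mki67, 274.8, against at most 53.7 in the other 11. The mean log2 level of the repair genes was 5.92 in C2 and 5.08 to 5.48 in the other normal brains, while glioma A4 had 5.67 and the other tumours 6.29 to 7.38. The mean of the proliferation genes was 7.06 in C2, 7.14 in glioma A4, 8.36 to 9.60 in the other tumours and 4.78 to 6.10 in the other normal brains. Within the medulloblastomas, A3 had the lowest Mki67 (478.8) and the lowest mean of the repair genes (6.52). C5 had the highest of both (2007.3 and 7.38), ahead of C2 at 7.29 for the repair genes. The Fancc value of C5, 522.7 against 65.2 in C2, enters that mean. By the mean of the proliferation genes A3 was again the lowest (8.37), but C5 was not the highest. It had 9.45, below A5, B4, B6 and C2 at 9.60, 9.59, 9.57 and 9.52.

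**Figure D4:**
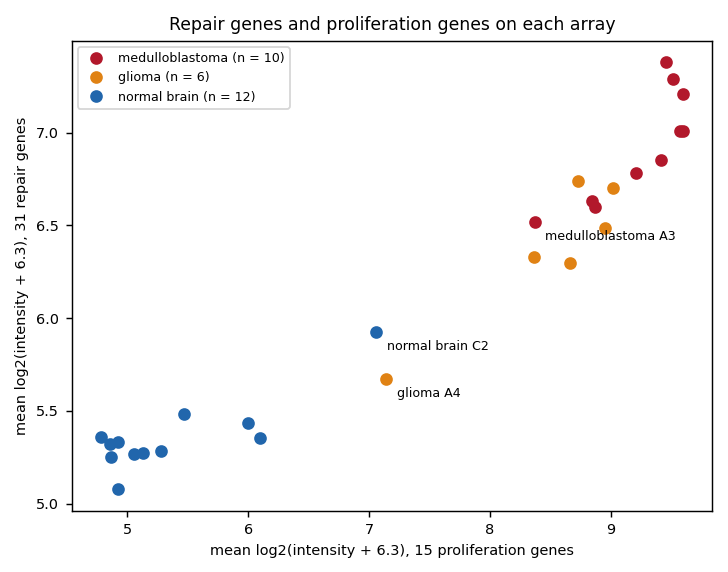
Mean log2(intensity + 6.3) of the 31 repair genes (vertical axis) against that of 15 proliferation genes (horizontal axis), 1 point per array. Normal brain C2 (7.06, 5.92) and glioma A4 (7.14, 5.67) lie between the other normal brains and the other tumours.

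Fancc and Fanci each stood far above the rest of their group on single tumour arrays, and the genes beside them on the chromosome were examined after this was seen. Gene order was taken from RefSeq. Fancc had 522.7 in medulloblastoma C5, whereas the other 9 medulloblastomas ran from 23.1 to 65.2 and the normal brains from 16.3 to 42.5. Its 2 dimmer probe sets were also highest in C5 among the medulloblastomas, at 228.9 and 43.9, and the first of them had 114.5 in C2, where the brightest probe set had the second highest value, 65.2. Without C5 the difference of Fancc between medulloblastoma and normal brain was 0.28 and did not pass (limma adjusted p = 0.152).

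The next gene beside Fancc is Ptch1, the receptor that restrains the Sonic hedgehog pathway. Ptch1 had 42.3 in C5 and 34.2 in A3, against 371.7 in C2 and 624.9 to 1941.5 in the remaining 7 medulloblastomas, and 267.5 to 1368.3 in normal brain. A second probe set of Ptch1 was also lowest in C5 and A3, at 1.0 and 6.4, but had 82.8 in C2, among 27.4 to 85.9 in the other 8, and the last one was dim throughout, at 0.6 to 3.0 in the 10. The Fancc intensity of A3 was 46.2, the third highest of the medulloblastomas. Ercc6l2, the gene beyond Ptch1, had 20 in A3 and 131.7 to 163.0 in the other medulloblastomas. Of 13 genes in a row centred on Fancc, Fancc alone was highest in C5.

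Fanci had 964.7 in glioma B7 and 168.9 in glioma C3, the only Rictor-null glioma, against 16.2 to 52.4 in the other 4 gliomas. Its second probe set, dim throughout, was also highest in these gliomas, at 15.6 in B7 and 6.9 in C3. Some of the neighbouring genes were high on the same arrays. Polg, the mitochondrial DNA polymerase, had 2391.7 in B7 and 2295.6 in C3, against 164.4 to 292.5 in the other gliomas. Rlbp1 had 3028.8 in B7 and 3267.5 in C3, against 162.8 to 1027.5. Mir9-3hg had 1635.2 in B7 and 450.2 in C3, against 29.4 to 106.2. Abhd2 was highest in C3, at 2217, and had 1351.5 in B7. At Ticrr, Kif7 and Pex11a only B7 was raised, at 122.4, 227.8 and 166.6. There C3 had 44.6, 52.8 and 54.5, within the range of the other 4 gliomas. Neither B7 nor C3 was the highest glioma at Isg20 or Acan. Of 13 genes in a row centred on Fanci, 8 had their highest glioma value in B7. Without B7 the difference of Fanci between glioma and normal brain was 1.96 (limma adjusted p = 7.32e-05). DNA copy number was not measured.

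**Figure D5:**
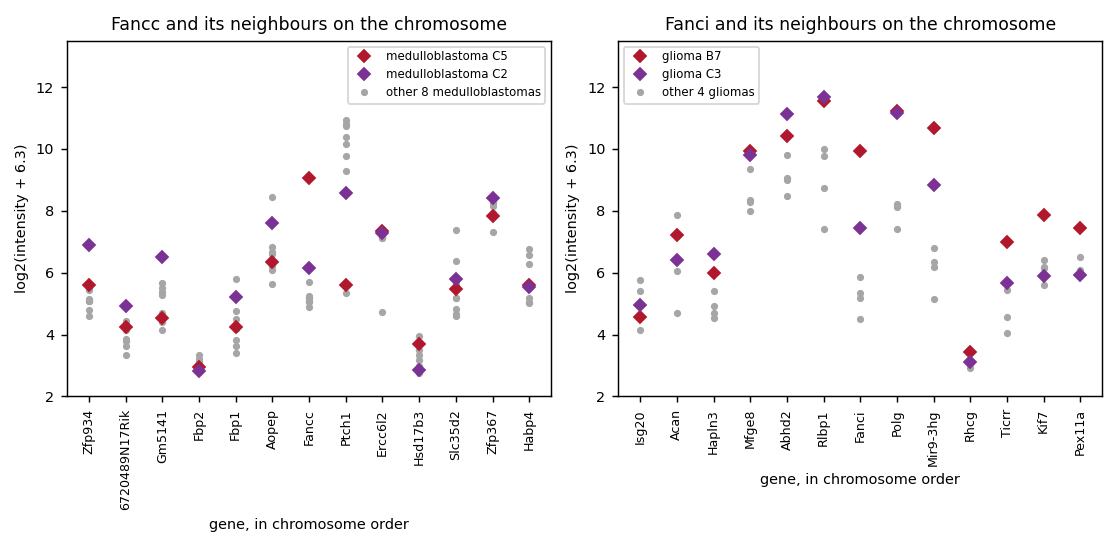
Log2(intensity + 6.3) of 13 genes in chromosome order around Fancc in the 10 medulloblastomas (left) and around Fanci in the 6 gliomas (right), 1 point per array. Left, C5 is high at Fancc and, with A3 among the grey points, low at Ptch1. Right, B7 and C3 stand above the other 4 gliomas from Mfge8 through Mir9-3hg.

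Rictor genotype was compared within tissues, and no repair gene was called. The targeted gene itself was examined first, through its brightest probe set. Rictor had a lowest, median and highest intensity of 68.8, 190.4 and 235.8 in medulloblastomas labelled Rictor-null, 260.8 and 276.8 in the 2 labelled heterozygous, and 222.7, 257.9 and 273.3 in the p53-null-only ones. In normal brain it had 213.3, 238.4 and 443.9 in the 5 arrays labelled Rictor-null and 250.5, 252.5 and 388.6 in the 5 labelled heterozygous, so this probe set did not separate the labels there. In Rictor-null against p53-null-only medulloblastomas 0 of 31 were called in limma and 0 had an unadjusted p under 0.05, where 0.00718% of all genes were called higher and 0% lower. Against Rictor-heterozygous medulloblastomas the counts were 0 and 0, where 0% of all genes were called higher and 0.00718% lower. Of all 13931 genes, 605 had an unadjusted p under 0.05 in the first of these comparisons and 199 in the second. In normal brain 0 were called between arrays labelled Rictor-null and Rictor-heterozygous, where 0% of all genes were called in either direction. An unadjusted p under 0.05 was found for 2 of the 31, and for 439 of all 13931 genes. The 2 repair genes were Brca2 and Mre11a. Brca2 had 50.5, 78.4, 55.2, 50.2 and 45.4 in normal brains labelled Rictor-null and 34.2, 33.9, 45.8, 40.0 and 33.7 in those labelled heterozygous. The groups overlapped by a single pair, 45.4 and 45.8, and the difference was 0.49 (SE 0.16, limma adjusted p = 0.9997). Mre11a differed by 0.39 (SE 0.17, limma adjusted p = 0.9997), with normal brain C2 the highest in both genes. A contrast of the Rictor effect in tumour with that in normal brain was called for 0 repair genes and 0% of all genes. In it, 0 repair genes and 264 of all 13931 genes had an unadjusted p under 0.05.

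Other genes of these pathways behaved as follows. Beside the counts here and in the next paragraph stand the shares of all genes. These were 32.2% higher and 32% lower in medulloblastoma against normal brain, and 28.4% and 25.5% in glioma. Between the tumours 13.6% were higher and 14.8% lower in medulloblastoma. Of 19 further homologous recombination genes, 11 rose and 0 fell in medulloblastoma against normal brain, 9 rose and 0 fell in glioma, and 7 were higher and 0 lower in medulloblastoma than in glioma. Rad51ap1, which stimulates strand pairing, rose by 4.61 in medulloblastoma and 2.14 in glioma and differed by 2.47 between the tumours (SE 0.41, limma adjusted p = 5.04e-05). The resection nuclease Dna2 rose by 2.42 and 2.01 in medulloblastoma and glioma, and the resolvase Gen1 by 3.01 and 1.59. Of 12 further Fanconi genes 6 rose and 0 fell in each tumour against normal brain, led by Ube2t, the ubiquitin-conjugating enzyme of the pathway (2.59 and 2.03), and Usp1, which removes the ubiquitin (2.11 and 1.52). Between the tumours 2 were higher and 1, the endonuclease subunit Ercc1, was lower in medulloblastoma.

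Of 19 other damage response genes 12 rose and 0 fell in medulloblastoma, and 8 rose and 1 fell in glioma. Between the tumours 8 were higher and 3 lower in medulloblastoma. Hus1, a subunit of the checkpoint clamp, and Rev3l, the catalytic subunit of a translesion polymerase, were lower in medulloblastoma than in glioma, by −1.05 (SE 0.17, limma adjusted p = 3.35e-05) and −1.18 (SE 0.25, limma adjusted p = 0.000681). The ubiquitin ligase Rad18 was higher by 1.46 (SE 0.26, limma adjusted p = 0.000115). End joining, the repair route that rejoins ends without a template, was tested with 9 genes. Of these 4 rose and 1 fell in medulloblastoma and 5 rose and 0 fell in glioma, where 32.2% and 28.4% of all genes rose. Xrcc5, a subunit of the end-binding Ku protein, rose by 1.66 in medulloblastoma and 0.67 in glioma, and Lig3 rose by 1.87 and 1.54. Xrcc4, the ligase cofactor, was lower in medulloblastoma than in glioma by −0.80 (SE 0.16, limma adjusted p = 0.000403).

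Where a repair gene had several probe sets above the filter, as 17 did, none was called in the direction opposite to the one used in any of the 3 tissue comparisons. A weaker probe set did not pass where the one used did for 1 gene in medulloblastoma against normal brain, 4 in glioma against normal brain and 3 in medulloblastoma against glioma. The reverse, a dimmer probe set that was called where the one used was not, occurred for 3, 1 and 5 genes in these comparisons. Against normal brain these were Fancc at 0.99 (SE 0.29, limma adjusted p = 0.00624), Xrcc3 at 0.54 (SE 0.22, limma adjusted p = 0.0405) and Fancg at −0.53 (SE 0.18, limma adjusted p = 0.0141) in medulloblastoma, and Fancd2 at 0.80 (SE 0.26, limma adjusted p = 0.0139) in glioma. Between the tumours they were Clspn, Fancd2, Parp1, Rad51c and Timeless, with 0.46 to 0.81 in the called probe sets.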

How the data were processed

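The deposited values were linear intensities of single probe sets. Per the submitters' processing notes, the authors made them with MAS5 and GCOS (versions not stated). Every array had a trimmed mean of 100, and no 2 arrays were identical. The number of arrays limits the precision, and detection calls were not used here, so dim values carry no statement of presence. Of 45101 probe sets, 34945 with 1 symbol in the platform annotation were used, 932 had several symbols and 9211 had none listed.

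Before log2 the table's 25th percentile, 6.3, was added to each value as a pseudocount, and genes with a mean above the 30th percentile (3.88 on the log2 scale) were tested. Tissue comparisons came from 1 limma fit over 28 arrays with terms for tissue and for genotype, in which the wild-type array Z2 had a term of its own. It is counted in n = 12 but added nothing to the differences. Probe sets of 1 gene were compared in a second fit with the same terms, over all 34945 single-symbol probe sets without the filter. Genotype comparisons used the 10 medulloblastomas or the 12 normal brains, and the difference between them a fit of 10 group means. Fits were made by lmFit, then eBayes with a trend (two-sided), and were tested on simulated data. The design text gives 22 medulloblastomas, 6 gliomas and 24 normal brains, and those beyond the 28 arrays were not analysed here. The genes, lists, roles and alternatives were chosen with earlier results of these data known. All listed repair genes could be named. Values by array were given for the 2 of each role group with the highest mean and for any gene called lower in a tumour, and up to 4 called genes of each further list with the largest change were eligible. Genes chosen outside this rule are marked as such. Promoters came from RefSeq, build GRCm38.p6. The array annotation names no build, so RefSeq gave only the order of genes. Alternatives changed the pseudocount, the filter, the scaling, the probe set rule, the trend, the terms and the arrays. Software was limma 3.58.1 under R 4.3.3, with numpy 2.4.6, matplotlib 3.10.9 and pandas 2.3.3 under Python 3.11.15.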

Additional observations from a re-analysis of the deposited data

Results flagged for a closer look

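Each tumour group was searched for an array whose gap to its nearest neighbour exceeded Dixon's 95% critical value for the range on the log2(intensity + 6.3) scale, over 62 pairs of gene and tumour kind. Chance flags about 1 in 20, and 7 were found. Glioma A4 was the low array for 4 of them, with intensities of 19.8 for Exo1, 41.8 for Chek2, 54.1 for Clspn and 63.8 for Timeless, and it also had the lowest Mki67 of the gliomas. Fancc in medulloblastoma C5 was the only high one on that scale, at 522.7. Rad51c was low in medulloblastoma A6 at 32.1, and Fancg in medulloblastoma C4 at 4.4.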

How the results depend on the processing

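Over all alternatives run, no count of called repair genes in the Rictor comparisons moved from 0. The replicate block, with the title code shared by tumours and brains as a random effect (consensus correlation 0.199), gave 26 higher in medulloblastoma, 24 higher and 1 lower in glioma, and 14 higher between the tumours. Codes were matched without the title prefix, which differs between the medulloblastoma and the normal brain array for A6, B4 and C1. Of 9 same-code pairs 5 had correlated deviations over 0.1 (range −0.0406 to 0.321), and the highest was C1. These correlations do not settle whether arrays of 1 code are paired. The labels do not say whether a code is 1 animal, so the main fit did not take the codes as pairs. No paired analysis was possible within medulloblastoma or within normal brain because no code repeats there. Leaving out 1 array at a time gave 26 to 27 higher in medulloblastoma and 22 to 25 in glioma against normal brain, 0 to 2 lower in glioma (0 without glioma A4, 2 without glioma B3), and between the tumours 5 to 17 higher (5 without glioma A4) and 0 to 1 lower (Nbn, without medulloblastoma A5). The count lower in glioma, 1, became 2 with quantile normalization and without normal brains Z2, B2 and C5, the second gene being Xrcc3, and 0 within the YZ or the YZ2 arrays. The 12 genes higher in medulloblastoma than in glioma became 19 with the mean of all probe sets, 6 within YZ and 1 within YZ2 arrays, which hold fewer samples. An alternative chosen after seeing the data, without medulloblastoma C6 and normal brains C2, Z2, B2 and C5, gave 20 there and 2 lower in glioma. For the other shifts the cause was not tested.

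With the proliferation genes as a term, the counts against normal brain became 0 higher in medulloblastoma, and 0 higher and 0 lower in glioma, and that between the tumours 4. Under this term the following differences turned negative with no call. In medulloblastoma against normal brain they were Brip1 −0.18, Chek1 −0.18, Fanca −0.0807, Fancd2 −0.81, Fanci −0.53, Fancl −0.40, H2ax −0.35, Palb2 −0.26, Parp1 −0.63, Rad50 −0.0873, Rad54l −0.27. In glioma against normal brain they were Blm −0.70, Brca2 −0.19, Brip1 −0.41, Chek1 −0.41, Exo1 −0.18, Fanca −0.082, H2ax −0.55, Mre11a −0.19, Palb2 −0.65, Parp1 −0.49, Rad50 −0.0341, Rad54b −0.0338, Rad54l −0.27. No other alternative turned the direction of a called gene. Dim genes such as Brip1 and Fancg sit near the pseudocount, so their differences understate any change.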
